A study of Mus musculus with 15 samples.

Results

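Livers taken 1 day after a single doxorubicin injection were compared with livers from saline-injected mice. The comparison used 10 of the 15 libraries of the study, 5 per group. It covered every gene that reached 1 FPKM (fragments per unit of gene length and of library size) in at least 5 of the 10 libraries, which left 10369 of the 21878 genes in the table. All mice were 8-week-old male C57BL/6J animals. The control mice received saline, and the treated mice received doxorubicin at 10 mg/kg from a solution of 2 mg/mL in sterile water, in both groups as 1 intraperitoneal dose. Livers were frozen, RNA was extracted with TRIzol, and poly(A) RNA was sequenced, with 1 library per mouse. The labels name no genetic change in either group. The design note of the series states that samples lack information on doxorubicin, while the sample labels name the drug and its dose, and the labels were followed. The last doxorubicin column carries a number that no doxorubicin label has, so it is called the unnumbered doxorubicin library. Vehicle differed along with the drug, so the effects of drug and vehicle cannot be told apart.

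Doxorubicin is an anthracycline that intercalates into DNA and traps type II topoisomerases on it, which leaves DNA breaks. The liver takes the drug up and reduces it with carbonyl reductases and aldo-keto reductases. Hepatocytes secrete most plasma proteins, and these pass through the endoplasmic reticulum (ER), where chaperones fold them, oxidoreductases form their disulfide bonds, and a quality-control system returns failed proteins to the cytosol for degradation. Hepatocytes also clear bile acids, ammonia and xenobiotics through enzymes that few other cells express.

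The depth recovered from the FPKM steps was 27.6 to 34.7 M reads (megareads) in saline and 37.6 to 50.7 M reads after doxorubicin, so the ranges did not overlap. The sequencing run of each library is not in the labels, and a run that held 1 group alone cannot be told apart from the treatment. All 16 hepatocyte defining markers were tested, and 2 were higher and 5 lower, or 8 lower without saline 2. Albumin (Alb) ranged from 29220 to 43250 FPKM in saline and from 26890 to 38040 FPKM after doxorubicin, and transthyretin (Ttr) from 5836 to 6875 and 4866 to 6940 FPKM, so both groups carried the profile of liver. Saline 2 stood apart from its group: its median correlation with the other 4 saline libraries was 0.967, against 0.988 to 0.99 for the others. The unnumbered library had the lowest such value among the doxorubicin libraries, 0.983.

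After doxorubicin 1508 genes were higher (14.5% of those tested) and 1789 were lower (17.3%), at a limma adjusted p under 0.05 on log2(FPKM + 1). A log2 change on that scale understates the change of genes near or below 1 FPKM. At least a 2-fold change was reached by 233 of the higher genes (2.25%) and by 173 of the lower genes (1.67%). In 1093 genes (10.5%) all 5 doxorubicin values lay above all 5 saline values, and in 1194 genes (11.5%) all lay below. The median change of all tested genes was -0.04 log2. The shares of 14.5% higher and 17.3% lower are the all-gene values to set beside each list count below. In 79 of the tested genes every library of 1 group reached 1 FPKM and no library of the other did. The filter let these in through the group where they were high, so they had to differ, and those named below are given without a p-value. Their number among the tested members of a list was at most 2, except for the 5 among the p53 targets. Of the genes that changed at least 2-fold, 123 of the higher and 58 of the lower stood in 1 of the 61 lists of pathways and cell type markers described below, and 110 and 115 stood in none. Over all called genes, 1094 of the higher and 1538 of the lower stood in none.

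**Figure D1:**
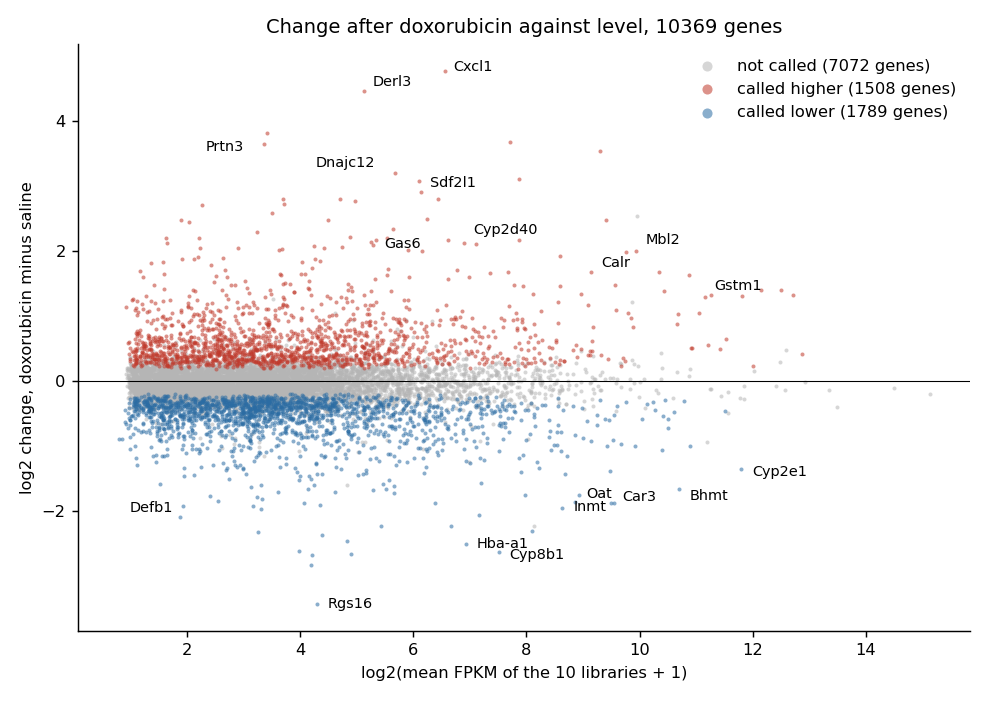
Log2 change (doxorubicin minus saline, on log2(FPKM + 1)) of each tested gene on the vertical axis against its mean level on the horizontal axis. The 1508 higher and 1789 lower genes are coloured. A selection of genes is named, which leaves out some of the largest changes. Rises reach further than falls: Cxcl1 stands at 4.78 and Derl3 at 4.46, and Rgs16 at -3.43.

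Of the genes that fold secreted proteins, 17 of 23 tested ER chaperones and 12 of 19 tested disulfide isomerases were higher after doxorubicin. Promoters of some of them carry the ER stress element, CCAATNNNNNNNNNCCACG, whose CCAAT end is known to bind the transcription factor NF-Y and whose CCACG end is known to bind ATF6 and XBP1. The element was searched on both strands in RefSeq promoters (GRCm38.p6, 250 bases before to 50 after the start site), which were found for 8384 of the 10369 tested genes. It was present in 37 of 27025 promoters (0.137%) and in 16 of the 8384 tested genes (0.191%). Of these 16 genes, 13 were higher after doxorubicin, 1 was lower (Acacb, limma adjusted p = 0.0123, or 0.0537 without saline 2 and the unnumbered library) and 2 passed no test (Hnrnpa3 and Pan2). Among all higher genes with a promoter sequence, 13 of 1205 held it (1.08%), against 1 of 1426 lower genes (0.0701%). The stretches below are shown because these genes rose together and share the element. Each is read 5′ to 3′ on the strand of the gene, with the match in capitals, and appears as CGTGG and ATTGG where the element lies on the opposite strand.
Hspa5, chr2:34772005-34772063: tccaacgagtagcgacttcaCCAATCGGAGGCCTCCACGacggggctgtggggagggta
Hsp90b1, first match, chr10:86705618-86705676: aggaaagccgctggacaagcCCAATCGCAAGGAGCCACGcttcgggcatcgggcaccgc
Hsp90b1, other match, chr10:86705513-86705571: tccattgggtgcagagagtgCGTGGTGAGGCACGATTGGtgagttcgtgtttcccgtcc
Calr, chr8:84847055-84847113: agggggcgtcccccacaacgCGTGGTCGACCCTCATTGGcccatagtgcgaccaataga
Canx, chr11:50325780-50325838: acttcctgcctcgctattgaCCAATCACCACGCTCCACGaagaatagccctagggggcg
Dnajc3, chr14:118937807-118937865: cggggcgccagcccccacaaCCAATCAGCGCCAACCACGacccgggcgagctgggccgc
Pdia6, chr12:17266471-17266529: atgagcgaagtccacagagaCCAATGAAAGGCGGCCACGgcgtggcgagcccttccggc
Ero1lb, chr13:12565662-12565720: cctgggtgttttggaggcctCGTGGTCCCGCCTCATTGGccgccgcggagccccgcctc
Derl3, chr10:75893222-75893280: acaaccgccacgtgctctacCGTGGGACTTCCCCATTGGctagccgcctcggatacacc
Syvn1, chr19:6046512-6046570: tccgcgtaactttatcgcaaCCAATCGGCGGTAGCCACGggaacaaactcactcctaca
Creld2, chr15:88819500-88819558: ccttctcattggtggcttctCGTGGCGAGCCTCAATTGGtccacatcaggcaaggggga
Alg12, chr15:88819500-88819558: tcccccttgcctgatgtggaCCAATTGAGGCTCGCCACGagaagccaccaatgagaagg
Creld2 and Alg12 lie head to head, and both matches are the same bases of chromosome 15 read from opposite strands. Relative to the start site, the element ran from base -44 to -26 in Syvn1, from -65 to -47 in Hspa5 and from -156 to -138 in Derl3. A match is a description of the letters in this window and no measure of binding. The CCACG end alone was common: it was found in 52.3% of tested genes and 50.6% of higher genes, and in 17 of the 19 ER chaperones with a promoter sequence (89.5%).

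These genes were picked for their promoters, and Hspa5, Calr, Hsp90b1, Canx, Dnajc3, Alg12, Acnat2 and Xlr3a lie outside the rule for named genes. Library values are listed throughout in the order saline 1 to 5, then doxorubicin 1 to 4 and the unnumbered library. Hspa5 (chr2:34772090-34776529) encodes BiP, the main ER chaperone. It stood at 144, 196, 156, 158 and 136 FPKM in saline and 489.6, 971, 531, 532 and 564 FPKM after doxorubicin. The groups did not overlap, and doxorubicin 2 held the highest value (log2 change 1.92 ± 0.23 SE, limma adjusted p = 1.1e-05). Calr (chr8:84842088-84846931), the lectin chaperone calreticulin, stood at 287, 264, 258, 250.2 and 271 FPKM in saline and 743, 1001, 879, 834 and 830.3 FPKM after doxorubicin. Every treated liver had more than double the calreticulin mRNA of every control (log2 change 1.68 ± 0.11 (SE), limma adjusted p = 2.6e-08). Hsp90b1, the ER member of the HSP90 family, rose from 203 ± 25.4 to 564 ± 110.3 FPKM (mean ± SD, n = 5 each), a log2 change of 1.46 (limma adjusted p = 2.9e-06). Derl3 (chr10:75893398-75895941), a channel component of ER-associated degradation, stood at 3.57, 1.13, 0.524, 0.861 and 2.56 FPKM in saline and 33.1, 123, 49.5, 22.1 and 103 FPKM after doxorubicin. It varied widely among treated livers, and the lowest of them still exceeded every control (log2 change 4.46 ± 0.49 (SE), limma adjusted p = 9.8e-06). Syvn1, the ubiquitin ligase of the same system, stood at 31.5, 102, 43.6, 33.4 and 40.8 FPKM in saline and 84.2, 217, 139.7, 122 and 157 FPKM after doxorubicin. Its groups overlapped only through saline 2 (log2 change 1.58 ± 0.34 (SE), limma adjusted p = 0.00226). Alg12, a mannosyltransferase of glycan assembly that shares its promoter region with Creld2, rose from 6.89 ± 2.41 to 17.4 ± 2.35 FPKM (mean ± SD, n = 5 each) (limma adjusted p = 2.2e-04). Acnat2, an acyl-CoA N-acyltransferase of the peroxisome, rose by 0.70 log2 (limma adjusted p = 0.00107). Xlr3a rose by 1.19 log2 (limma adjusted p = 0.00898), which became 0.0583 without saline 2 and the unnumbered library.

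No tested ER chaperone or disulfide isomerase was called lower. Of 24 ER chaperones and cofactors 23 were tested, and 17 were higher and 0 lower, with a median change of 0.92 log2. Of 19 tested protein disulfide isomerases and oxidases 12 were higher and 0 lower, with a median of 0.53. The largest of these rises were those of Pdia6, Pdia4 and Pdia3, by 1.67, 1.6 and 1.48 log2. ER-associated degradation was more mixed, with 11 of 27 members higher and 3 lower (March6, Herpud2 and Rnf139, with log2 changes of -0.52, -0.36 and -0.40). None of these counts rests on members that reached 1 FPKM in 1 group alone.

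Of 58 listed genes of entry, glycosylation and transport at the ER, 56 were tested, and 42 were higher and 0 lower, with a median of 0.53 log2. In 41 of the 56 all doxorubicin values lay above all saline values, against 10.5% of all tested genes. No promoter of the 44 members of this list with a sequence held the full ER stress element. Rpn1 (chr6:88084473-88105304), a ribophorin of the oligosaccharyltransferase, stood at 28.6, 24.3, 22.2, 27.1 and 27.3 FPKM in saline and 63.4, 77.5, 70.2, 72.8 and 63.1 FPKM after doxorubicin. The lowest treated liver was more than double the highest control (log2 change 1.39 ± 0.11 (SE), limma adjusted p = 2.4e-07). Ostc, another subunit of that enzyme, rose from 23 ± 3.9 to 53 ± 6.85 FPKM (mean ± SD, n = 5 each) (limma adjusted p = 6.8e-05). Sec61g, the gamma subunit of the translocon, stood at 14.6, 9.43, 12.1, 10.8 and 12.7 FPKM in saline and 19.5, 26.4, 27, 27.6 and 62.2 FPKM after doxorubicin. The groups did not overlap, and the unnumbered library held more than double any other value (log2 change 1.27 ± 0.24 (SE), limma adjusted p = 6.6e-04). Tmed9, a cargo receptor of early secretory vesicles, rose from 37.3 ± 2.64 to 81.8 ± 9.38 FPKM (mean ± SD, n = 5 each) (limma adjusted p = 1.2e-05). Gmppb, which makes the sugar donor GDP-mannose and stood in no list, rose as well. It stood at 3.83, 3.19, 4.16, 4.28 and 4.55 FPKM in saline and 16.1, 27.9, 18, 19 and 17.9 FPKM after doxorubicin, and every treated liver lay above every control (log2 change 2.04 ± 0.18 (SE), limma adjusted p = 5.5e-07).

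Of the ER stress sensors and their factors, 5 of 10 tested were higher and 0 lower. Xbp1 stood at 71.3, 75.8, 71.3, 73.7 and 70.8 FPKM in saline and 133, 139, 136, 148 and 155 FPKM after doxorubicin, and its treated values all lay above all controls (log2 change 0.96 ± 0.10 (SE), limma adjusted p = 2.9e-06). The table holds 1 value per gene, so spliced and unspliced Xbp1 cannot be told apart. Ern1, which encodes the sensor IRE1alpha that splices Xbp1 mRNA, stood at 8.81, 6.17, 9.78, 8.65 and 11.1 FPKM in saline and 4.31, 8.36, 12.2, 9.1 and 7.29 FPKM after doxorubicin. Its groups overlapped (log2 change -0.14 ± 0.19 (SE), limma adjusted p = 0.624). Eif2ak3, the sensor PERK, rose by 0.62 log2, and Atf6b by 0.69 log2 (limma adjusted p = 0.00355 and 4.4e-05). Gdf15, which encodes a hormone that suppresses appetite and is a target of stress pathways, stood at 9.62, 11.5, 4.92, 10.8 and 11 FPKM in saline and 57.9, 39.7, 47.5, 33.6 and 58.9 FPKM after doxorubicin. Every treated value was well above every control (log2 change 2.22 ± 0.23 (SE), limma adjusted p = 3.0e-06).

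Most tested genes of the interferon response were higher after doxorubicin. Of 56 listed interferon-stimulated genes 53 were tested, of which 46 were higher and 1, Trim25, was lower, with a median of 0.73 log2. The call of Trim25 was lost in 6 of the 10 fits that left out 1 library (limma adjusted p up to 0.0949). Of 18 listed interferon-inducible GTPases, which act against intracellular pathogens, 14 were tested and 12 were higher and 0 lower, with a median of 0.96. The interferon-stimulated response element, searched as GAAANNGAAA on both strands, lay in 325 of 8384 tested promoters (3.88%), in 7.88% of the higher genes and in 2.31% of the lower genes. It was present in 17 of 37 higher interferon-stimulated genes with a promoter sequence (45.9%) and in 7 of 8 higher GTPases (87.5%). The stretches below show 3 GTPases of chromosome 11, chosen because their stretches resemble each other, and Isg15, the latter with 1 of its 3 overlapping matches in capitals.
Igtp, chr11:58199502-58199551: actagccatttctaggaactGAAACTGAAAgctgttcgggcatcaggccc
Irgm2, chr11:58214893-58214942: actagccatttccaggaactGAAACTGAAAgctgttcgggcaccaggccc
Tgtp1, chr11:48992294-48992343: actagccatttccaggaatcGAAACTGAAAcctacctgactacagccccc
Isg15, chr4:156200867-156200916: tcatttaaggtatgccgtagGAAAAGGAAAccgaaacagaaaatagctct
The Igtp and Irgm2 stretches were identical at 48 of 50 bases, and the Tgtp1 stretch matched Igtp at 34 and Irgm2 at 36. Isg15 (chr4:156199424-156200818), a ubiquitin-like modifier, stood at 10.3, 15.7, 13.2, 10.4 and 15.7 FPKM in saline and 51.2, 58.4, 54.2, 54.3 and 89.4 FPKM after doxorubicin. The groups did not overlap, and the unnumbered library lay far above the other 4 treated livers (log2 change 2.14 ± 0.19 (SE), limma adjusted p = 7.4e-07). Igtp (chr11:58199556-58207592) stood at 14.3, 26.2, 17.4, 20.9 and 21.6 FPKM in saline and 55.8, 46, 47.1, 47.4 and 75.6 FPKM after doxorubicin, again without overlap (log2 change 1.39 ± 0.19 (SE), limma adjusted p = 4.0e-05). Irgm2 stood at 9.41, 12.5, 8.25, 13.3 and 10.9 FPKM in saline and 24.8, 24.8, 21.2, 25.3 and 23.7 FPKM after doxorubicin, with little spread among treated livers (log2 change 1.09 ± 0.12 (SE), limma adjusted p = 7.1e-06). Tgtp1 rose from 1.36 ± 0.393 to 4.83 ± 0.875 FPKM (mean ± SD, n = 5 each) (limma adjusted p = 1.5e-06), and its reads may be shared with its near-identical neighbour Tgtp2. Ifi47 rose by 1.3 log2 (limma adjusted p = 4.0e-06).

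Presentation on MHC class I changed in part. Of 23 tested genes 12 were higher and 2 lower. The inducible proteasome subunits, which replace their constitutive counterparts under interferon, were all higher: Psmb8 ranged over 18.3 to 22 FPKM in saline and 32 to 46.4 FPKM after doxorubicin, Psmb9 over 14.1 to 17.6 FPKM in saline and 21 to 33.8 FPKM after doxorubicin and Psmb10 over 22.1 to 30.7 FPKM in saline and 33 to 50.1 FPKM after doxorubicin. Their log2 changes were 0.79, 0.69 and 0.70 (limma adjusted p = 3.4e-05, 7.3e-04 and 4.7e-04). Tap1, a subunit of the peptide transporter, rose from 9.31 ± 1.63 to 21.4 ± 2.86 FPKM (mean ± SD, n = 5 each) (limma adjusted p = 5.0e-06). Of the constitutive proteasome subunits, by contrast, 2 of 35 were higher and 2 lower. MHC class II genes gave 1 higher and 2 lower of 8 tested. Ctss, a protease of that pathway, was the higher one (log2 change 0.75, limma adjusted p = 0.0059), and H2-Aa and H2-Ob were the lower ones. H2-Ob, with a log2 change of -0.56, reached 1 FPKM in the saline group alone. H2-Aa had a log2 change of -0.41 (limma adjusted p = 0.0388), and its call was lost in 4 of the 10 fits that left out 1 library (limma adjusted p up to 0.11).

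**Figure D2:**
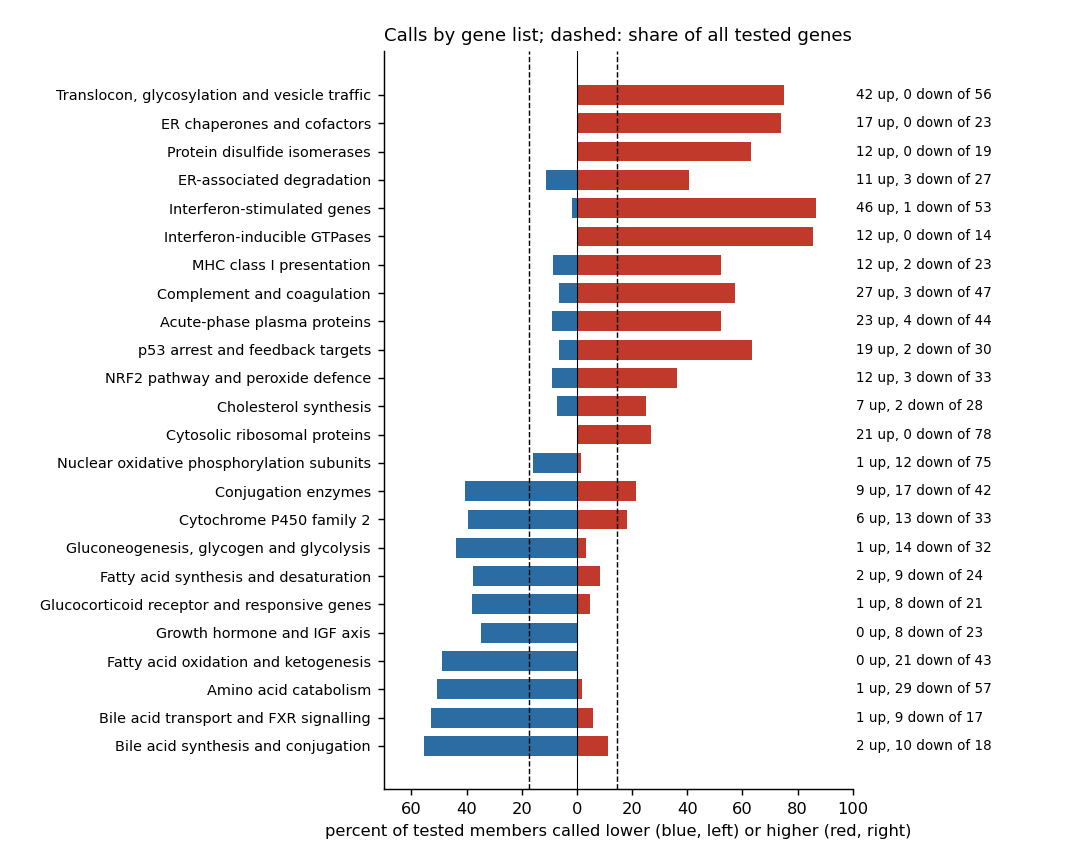
For a selection of the 61 gene lists, bars show the percentage of tested members called higher (to the right) and lower (to the left). Dashed lines mark the all-gene values of 14.5% and 17.3%. The other lists, among them all lists of cell type markers, are not drawn. Bars reach far to the right for translocon and glycosylation (42 of 56 higher) and interferon-stimulated genes (46 of 53 higher), and far to the left for bile acid synthesis (10 of 18 lower) and amino acid catabolism (29 of 57 lower).

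In complement and coagulation 47 of 54 listed genes were tested, of which 27 were higher and 3 lower, with a median of 0.41 log2. Mbl2 (chr19:30232906-30239687), a mannose-binding lectin that starts complement activation, stood at 414, 284, 360.2, 459.7 and 459.8 FPKM in saline and 1633, 1374, 1652, 1401 and 1806 FPKM after doxorubicin. Its treated values were about 3.98 times the controls on average, without overlap (log2 change 2.0 ± 0.15 (SE), limma adjusted p = 1.7e-07). C3, the central complement component, stood at 1651, 799.6, 1622, 1772 and 1209 FPKM in saline and 2954, 3237, 2762, 2857 and 2277 FPKM after doxorubicin. Saline 2 held the lowest value, and the groups did not overlap (log2 change 1.04 ± 0.20 (SE), limma adjusted p = 8.0e-04). Hc (complement C5) rose from 154 ± 18.9 to 301 ± 25.3 FPKM (mean ± SD, n = 5 each) and C8a from 198 ± 28.1 to 416 ± 37.4 FPKM (mean ± SD, n = 5 each), by 0.96 and 1.08 log2 (limma adjusted p = 1.7e-06 and 1.4e-06). Fn1, fibronectin, rose from 134 ± 27.6 to 256 ± 37.3 FPKM (mean ± SD, n = 5 each) (limma adjusted p = 1.0e-04). Klkb1, plasma prekallikrein, was one of the 3 lower members and ranged over 58.9 to 87.5 FPKM in saline and 36.1 to 58.7 FPKM after doxorubicin (log2 change -0.64 ± 0.13 (SE), limma adjusted p = 9.9e-04). The other two were C8g and F3, with log2 changes of -0.44 and -0.39 (limma adjusted p = 6.2e-04 and 0.0436). The call of F3 was lost in 6 of the 10 fits that left out 1 library (limma adjusted p up to 0.125).

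Of 44 tested acute-phase proteins 23 were higher and 4 lower, with a median of 0.81 log2. Hp, which binds free haemoglobin, and Hpx, which binds haem, rose by 1.33 and 1.4 log2 (limma adjusted p = 3.3e-06 and 4.4e-05). The serum amyloids varied widely before any drug: Saa2 (chr7:46751833-46754313) stood at 66.3, 14.8, 725, 232 and 16.6 FPKM in saline and 492, 1929, 1273, 635 and 894 FPKM after doxorubicin. Saline 3 lay inside the treated range, so the groups overlapped (log2 change 3.55 ± 1.18 (SE), limma adjusted p = 0.0341), and the call was lost in 6 of the 10 fits that left out 1 library, among them those without saline 2 and without the unnumbered library (limma adjusted p = 0.0928 and 0.057). Saa1, outside the rule for named genes, just missed the threshold (log2 change 2.54, limma adjusted p = 0.0514), and passed it without saline 3 or saline 4 (0.0148 and 0.0459) and under 3 other alternatives. Saa1 and Saa2 are close in sequence, and reads may be split between them. The hepcidin genes went in opposite directions. Hamp (chr7:30942368-30944029), the hormone that closes the iron exporter ferroportin, stood at 1057, 755, 675, 909 and 738 FPKM in saline and 2045, 1245, 2419, 2955 and 5858 FPKM after doxorubicin. All treated values were above all controls and the unnumbered library was the highest (log2 change 1.64 ± 0.31 (SE), limma adjusted p = 7.6e-04). Hamp2 stood at 184, 636, 365, 632 and 301 FPKM in saline and 110.5, 9.68, 46.3, 248 and 199.6 FPKM after doxorubicin (log2 change -2.3 ± 0.68 (SE), limma adjusted p = 0.0187), but its groups overlapped and the call was lost without saline 2 (limma adjusted p = 0.0563). Reads of these near-identical copies may be split. Slc40a1, ferroportin itself, ranged over 23.4 to 44.4 FPKM in saline and 15.1 to 18.4 FPKM after doxorubicin (log2 change -0.91, limma adjusted p = 4.6e-05). Mug1, a murinoglobulin protease inhibitor, fell from 960.4 ± 108 to 513 ± 61.4 FPKM (mean ± SD, n = 5 each) (limma adjusted p = 4.0e-05), and it too has close relatives.

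Among inflammatory signals, the chemokine list had 14 of 30 genes tested, 6 of them higher and 0 lower, and 2 of the tested members passed the filter through 1 group alone. With no filter on low values the count of higher members was 11, and that over all genes rose from 1508 to 1765. Cxcl1 (chr5:90891245-90893121), a neutrophil attractant, stood at 5.72, 5.94, 7.03, 5.76 and 3.79 FPKM in saline and 203, 184, 163, 202 and 148 FPKM after doxorubicin. Every treated liver lay far above every control (log2 change 4.78 ± 0.19 (SE), limma adjusted p = 5.7e-11). Its promoter holds the NF-kB sequence GGGANNNNCC in 3 matches, 2 of which overlap. One of them is shown with 50 bases of its surroundings because Cxcl1 had the largest rise of the genes named here.
Cxcl1, chr5:90891154-90891203: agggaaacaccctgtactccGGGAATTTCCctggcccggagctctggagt
That motif is short and lay in 30% of all tested promoters, 27.2% of higher genes and 31.6% of lower genes, so its presence sets no gene apart. Of 20 tested NF-kB subunits and feedback targets 6 were higher and 1 was lower, and 9 were higher under median-ratio scaling. Icam1, an adhesion molecule for leukocytes, rose by 1.5 log2 and Bcl3, a nuclear IkB protein, by 1.39 (limma adjusted p = 1.9e-06 and 1.6e-04). In the IL-6 and IL-1 signalling list 7 of 24 were higher and 2 lower. Socs3, the feedback inhibitor of IL-6 receptor signalling, stood at 6.15, 15.6, 5.4, 4.61 and 6.9 FPKM in saline and 30.3, 26.5, 29.96, 26.5 and 30.8 FPKM after doxorubicin. Saline 2 had more than double the level of the other controls and the groups still did not overlap (log2 change 1.89 ± 0.25 (SE), limma adjusted p = 3.2e-05). Stat3, the transcription factor of that pathway, ranged over 21.7 to 29.4 FPKM in saline and 41.4 to 51.2 FPKM after doxorubicin (log2 change 0.86, limma adjusted p = 5.1e-06). Among immediate early factors 5 of 15 tested were higher and 0 lower, with Junb at 1.58 and Fos at 0.96 log2 (limma adjusted p = 1.0e-04 for Junb). Among controls Fos reached 1 FPKM in saline 2 and saline 3 alone. It passed the filter mainly through the doxorubicin group and is given without a p-value.

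In amino acid catabolism 57 of 58 genes were tested, of which 29 were lower and 1, Sdsl, was higher, with a median of -0.34 log2. The call of Sdsl was lost in 5 of the 10 fits that left out 1 library. Got1 (chr19:43499752-43524605), cytosolic aspartate aminotransferase, stood at 141, 78.4, 107, 202 and 126 FPKM in saline and 30.3, 29.4, 27.5, 49.5 and 33.4 FPKM after doxorubicin. The highest treated liver lay below the lowest control (log2 change -1.87 ± 0.21 (SE), limma adjusted p = 8.0e-06). Oat (chr7:132557475-132576398), ornithine aminotransferase, stood at 584, 890, 759, 869 and 546 FPKM in saline and 224, 165, 162, 215 and 232 FPKM after doxorubicin, which made the treated mean 3.66 times lower (log2 change -1.85 ± 0.15 (SE), limma adjusted p = 3.0e-07). Bhmt, which remethylates homocysteine, fell from 2498 ± 383 to 814 ± 255 FPKM (mean ± SD, n = 5 each) (limma adjusted p = 2.5e-06). Cth, which makes cysteine by transsulfuration, fell from 348 ± 80.2 to 129 ± 12 FPKM (mean ± SD, n = 5 each) (limma adjusted p = 8.2e-06). Ass1, a urea cycle enzyme outside the rule for named genes, ranged over 1165 to 2186 FPKM in saline and 767 to 1152 FPKM after doxorubicin (log2 change -1.06, limma adjusted p = 1.6e-04). Its treated values were alike in 4 livers and higher in doxorubicin 4.

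Fatty acid oxidation and ketogenesis had 21 of 43 genes lower and 0 higher, with a median of -0.51 log2. The 4 largest falls of this list were in Acot3, Acot1, Cyp4a14 and Cyp4a10. Peroxisome proliferator-activated receptor alpha is known to induce these genes, and its activity was not tested. Acot1 (chr12:84009502-84017670) and Acot3, acyl-CoA thioesterases, stood at 28, 56, 17.4, 31.2 and 23.6 and at 6.62, 36.5, 7.15, 12.8 and 13.1 FPKM in saline, where saline 2 was the highest for both. After doxorubicin they stood at 13.6, 6.82, 8.27, 3.55 and 5.66 and at 3.2, 1.4, 2.07, 1.02 and 1.3 FPKM, below every control (-1.91 ± 0.31, limma adjusted p = 2.3e-04 for Acot1 and -2.32 ± 0.38, limma adjusted p = 2.6e-04 for Acot3, as log2 change ± SE). The omega-hydroxylase Cyp4a10 fell from 739.8 ± 257 to 232 ± 103 FPKM (mean ± SD, n = 5 each) (limma adjusted p = 0.00111). Cyp4a14 ranged over 599.9 to 2108 FPKM in saline and 174 to 614 FPKM after doxorubicin, and its groups overlapped because doxorubicin 1 lay inside the saline range (log2 change -1.87 ± 0.34 (SE), limma adjusted p = 6.0e-04). Both pairs have near-identical relatives, so reads may be shared. Angptl4, an inhibitor of lipoprotein lipase, stood at 164, 223, 146, 155 and 157 FPKM in saline and 110.1, 94.2, 55.3, 58.8 and 51.2 FPKM after doxorubicin, without overlap (log2 change -1.23 ± 0.21 (SE), limma adjusted p = 3.0e-04). In fatty acid synthesis and desaturation 9 of 24 were lower and 2 higher. Elovl5, an elongase of polyunsaturated fatty acids, fell (log2 change -1.57, limma adjusted p = 5.0e-06), and Srebf1, the transcription factor of the pathway, rose by 1.03 log2 (limma adjusted p = 0.00246). Lpin1, a phosphatidate phosphatase, stood at 14.2, 28.8, 61.4, 37.9 and 37.1 FPKM in saline and 27.7, 6, 5.58, 8.84 and 7.64 FPKM after doxorubicin. Doxorubicin 1 had more than 3 times the level of the other treated livers and lay inside the saline range (log2 change -1.71 ± 0.38 (SE), limma adjusted p = 0.00293). The call was lost when only replicates 1 to 4 of both groups were fitted (limma adjusted p = 0.0569).

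In cholesterol synthesis, higher genes outnumbered lower ones: 7 of 28 genes were higher and 2 lower, with a median of 0.19 log2. Sqle, squalene epoxidase, stood at 8.8, 6.61, 11.5, 3.91 and 13.5 FPKM in saline and 17.1, 32, 22.3, 26.4 and 24.4 FPKM after doxorubicin. The groups did not overlap, although saline itself varied widely (log2 change 1.44 ± 0.26 (SE), limma adjusted p = 5.8e-04). Mvd rose from 5.93 ± 2.55 to 18.6 ± 6.68 FPKM (mean ± SD, n = 5 each) and Lss from 6.87 ± 1.44 to 17.1 ± 4.38 FPKM (mean ± SD, n = 5 each), by 1.51 and 1.18 log2 (limma adjusted p = 4.7e-04 and 3.1e-04). Insig2 and Scap, regulators that hold or escort the sterol sensor factors, were the lower members, with log2 changes of -0.87 and -0.34 (limma adjusted p = 0.00486 and 0.00219).

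In the list of gluconeogenesis, glycogen and glycolysis 14 of 32 genes were lower and 1 was higher, with a median of -0.30 log2. G6pc (chr11:101367716-101377903), the catalytic subunit of glucose-6-phosphatase, stood at 178, 269.6, 225, 94.2 and 365 FPKM in saline and 32.2, 72.9, 57, 104 and 19 FPKM after doxorubicin. Saline 4 and doxorubicin 4 overlapped, and the other values were separate (log2 change -2.06 ± 0.39 (SE), limma adjusted p = 8.2e-04). Slc2a2, the glucose transporter GLUT2, stood at 66.5, 67, 77.6, 64.3 and 88.1 FPKM in saline and 30.5, 25.7, 27.8, 33.8 and 28.2 FPKM after doxorubicin, without overlap (log2 change -1.28 ± 0.10 (SE), limma adjusted p = 2.4e-07). Ppp1r3b, which targets protein phosphatase to glycogen, fell from 65.6 ± 13.8 to 21.3 ± 5.11 FPKM (mean ± SD, n = 5 each), and Pklr, liver pyruvate kinase, from 38.5 ± 14.3 to 15.8 ± 1.78 FPKM (mean ± SD, n = 5 each) (limma adjusted p = 6.4e-06 and 1.0e-04). The single higher gene was Ldha, lactate dehydrogenase A, at 399, 232, 346, 445 and 266 FPKM in saline and 988, 808, 742, 665 and 553 FPKM after doxorubicin (log2 change 1.17 ± 0.18 (SE), limma adjusted p = 1.2e-04). The hour of sampling and the food intake of the mice are not in the labels, and their effects on these genes cannot be told apart from the drug.

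Bile acid genes had more lower than higher members, both in synthesis and in transport. Of 18 synthesis and conjugation genes 10 were lower and 2 higher, with a median of -0.43 log2, and of 17 tested transport and signalling genes 9 were lower and 1 higher, with a median of -0.47. Slc10a1 (chr12:80953185-80968705), the sodium-dependent uptake carrier NTCP, stood at 409, 288, 460, 444 and 447 FPKM in saline and 165, 175, 192, 195 and 134 FPKM after doxorubicin. Even the lowest control was well above the highest treated liver (log2 change -1.24 ± 0.14 (SE), limma adjusted p = 7.2e-06). Slco1a4 (chr6:141805438-141856284), an organic anion uptake carrier, stood at 30.8, 81.3, 44.2, 49.4 and 46.6 FPKM in saline and 9.45, 3.51, 6.38, 11.8 and 5.51 FPKM after doxorubicin and was 6.88 times lower in mean after doxorubicin (log2 change -2.65 ± 0.25 (SE), limma adjusted p = 1.4e-06). Abcc3, an exporter at the blood side, ranged over 72 to 83.6 FPKM in saline and 33.8 to 53.5 FPKM after doxorubicin (log2 change -0.90, limma adjusted p = 2.1e-05). Cyp7a1, the rate-limiting enzyme of bile acid synthesis and outside the rule for named genes, stood at 12.9, 51.6, 33.4, 83.9 and 40.7 FPKM in saline and 18.3, 20.5, 23.7, 8.5 and 20.3 FPKM after doxorubicin. Its groups overlapped and the difference passed no test (log2 change -1.09 ± 0.46 (SE), limma adjusted p = 0.083), except without saline 1 (limma adjusted p = 0.0111).

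**Figure D3:**
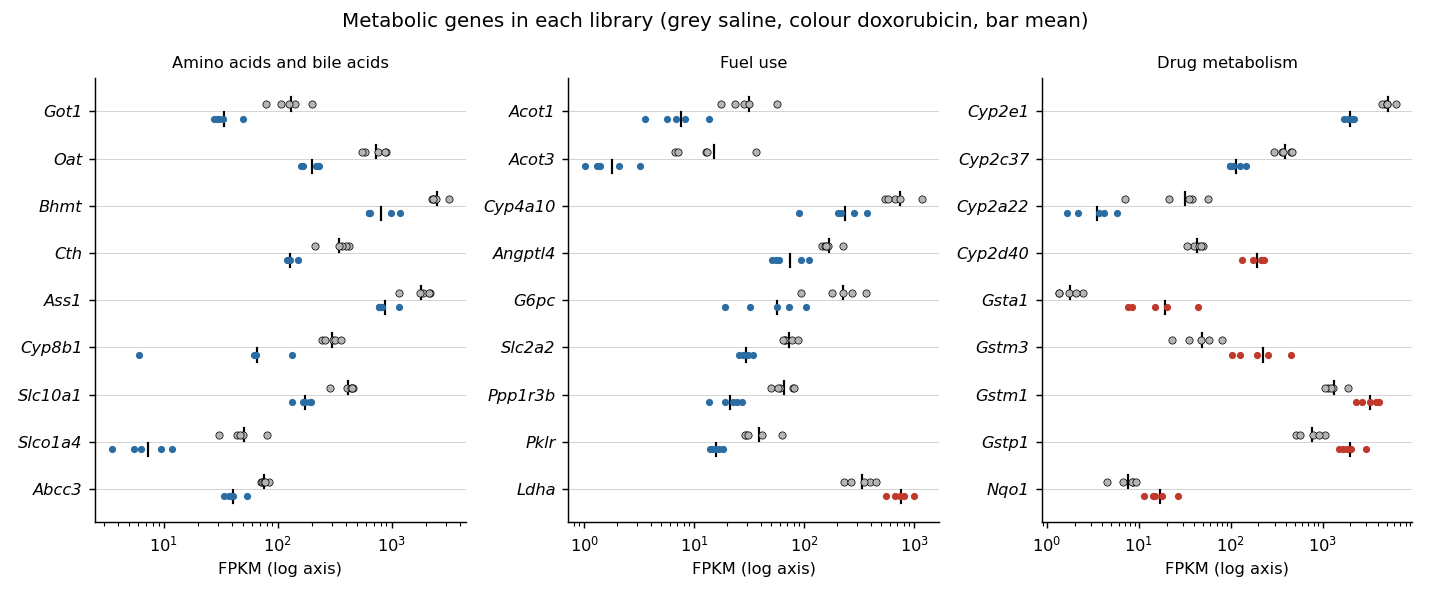
FPKM of metabolic genes in each library on a log axis, with saline in grey, doxorubicin in red (called higher) or blue (called lower) and the group means as bars. Treated points lie below the controls for Got1, Oat, Slc10a1 and Slco1a4, and G6pc overlaps through saline 4 and doxorubicin 4.

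Cytochrome P450 genes of drug metabolism changed in both directions. Among 33 tested Cyp2 genes 13 were lower and 6 higher, with a median of -0.47 log2, while 12 tested Cyp1a, Cyp3a and receptor genes gave 4 lower and 1 higher. Many Cyp2 genes are close in sequence, and reads may be shared among them. Cyp2e1 (chr7:140763819-140774990), which oxidises ethanol and small solvents, stood at 4796, 4430, 5057, 6232 and 5017 FPKM in saline and 2069, 1866, 2221, 2126 and 1700 FPKM after doxorubicin, and all treated livers lay far below all controls (log2 change -1.35 ± 0.11 (SE), limma adjusted p = 4.0e-07). Cyp2c37 fell from 387 ± 69 to 115 ± 21.2 FPKM (mean ± SD, n = 5 each) (limma adjusted p = 1.9e-07). Cyp2a22 stood at 7.08, 55.8, 21.1, 37.9 and 35 FPKM in saline and 5.75, 1.64, 4.14, 3.69 and 2.19 FPKM after doxorubicin, with a wide spread in saline and no overlap (log2 change -2.67 ± 0.51 (SE), limma adjusted p = 0.001004). Cyp2d40 went up instead, from 43.3 ± 6.81 to 193 ± 39.3 FPKM (mean ± SD, n = 5 each) (limma adjusted p = 1.3e-07). Cyp3a11, the main Cyp3a enzyme of mouse liver, fell too (log2 change -0.99, limma adjusted p = 4.0e-04).

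Conjugation enzymes had 17 of 42 lower and 9 higher. The largest rises were glutathione S-transferases, which attach glutathione to electrophiles. Gsta1 (chr9:78230669-78242683) stood at 1.75, 1.36, 2.44, 1.34 and 2.04 FPKM in saline and 43.8, 7.65, 8.49, 15 and 20.2 FPKM after doxorubicin. Doxorubicin 1 was more than double the next treated liver, and even the lowest treated value was above all controls (log2 change 2.59 ± 0.38 (SE), limma adjusted p = 8.1e-05). Gstm3 stood at 47.2, 22.6, 57.7, 34.8 and 80.3 FPKM in saline and 455, 104, 127, 251 and 191 FPKM after doxorubicin (log2 change 2.11 ± 0.38 (SE), limma adjusted p = 5.6e-04). Gstm1 rose from 1323 ± 327 to 3253 ± 769.5 FPKM (mean ± SD, n = 5 each) and Gstp1 from 772 ± 233 to 1997 ± 564 FPKM (mean ± SD, n = 5 each), by 1.29 and 1.38 log2 (limma adjusted p = 3.9e-05 and 1.3e-04). Reads may be shared within the Gsta and Gstm families. Sulfotransferases and a UDP-glycosyltransferase were among the falls. Sult1c2 stood at 3.25, 3.12, 2.62, 3.88 and 3.65 FPKM in saline and 0.269, 0.216, 0.392, 0.744 and 0.642 FPKM after doxorubicin, below 1 FPKM in every treated liver (log2 change -1.57). Sult5a1 fell from 14.7 ± 5.18 to 3.42 ± 1.15 FPKM (mean ± SD, n = 5 each) and Ugt3a1 from 22.6 ± 6.63 to 7.43 ± 1.84 FPKM (mean ± SD, n = 5 each) (limma adjusted p = 2.7e-04 and 2.1e-05).

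In the list of the NRF2 pathway, which defends against electrophiles, and of peroxide defence 12 of 33 tested genes were higher and 3 lower. Nqo1, a quinone reductase, stood at 8.59, 4.55, 8.48, 6.78 and 9.31 FPKM in saline and 26.3, 11.4, 14.8, 14.3 and 18 FPKM after doxorubicin, without overlap (log2 change 1.05 ± 0.20 (SE), limma adjusted p = 6.6e-04). Srxn1, which repairs peroxiredoxins, stood at 14.3, 13.3, 13.6, 13.9 and 13.7 FPKM in saline and 50.9, 28.4, 23.2, 21.2 and 26.1 FPKM after doxorubicin. Saline varied little, and doxorubicin 1 lay far above the other treated livers (log2 change 1.00 ± 0.17 (SE), limma adjusted p = 2.9e-04). Osgin1 ranged over 61 to 268 FPKM in saline and 200.4 to 486 FPKM after doxorubicin, with overlap (log2 change 1.46 ± 0.31 (SE), limma adjusted p = 0.00209). Among 23 tested enzymes that reduce or handle anthracyclines 6 were higher and 1 lower, and 5 were lower without saline 2. Cbr3 (chr16:93683219-93690991), carbonyl reductase 3, stood at 0.18, 0.426, 0.186, 0.198 and 0.427 FPKM in saline and 4.75, 1.1, 1.26, 1.12 and 1.92 FPKM after doxorubicin. It was below 1 FPKM in every control and above 1 FPKM in every treated liver, again with doxorubicin 1 the highest (log2 change 1.13). Cbr1, its abundant relative, stood at 138, 130.1, 121, 116 and 149.7 FPKM in saline and 319, 165, 204, 175 and 218 FPKM after doxorubicin (log2 change 0.69 ± 0.15 (SE), limma adjusted p = 0.00257), and it was named after its values were seen. Akr1b3, an aldose reductase, rose from 2.73 ± 0.909 to 6.46 ± 1.53 FPKM (mean ± SD, n = 5 each) (limma adjusted p = 3.6e-04), and Akr1c14, a hydroxysteroid dehydrogenase, was the lower one at 65.1 to 92.2 FPKM in saline and 41.3 to 58.1 FPKM after doxorubicin (log2 change -0.63, limma adjusted p = 0.00192).

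Of 30 tested p53 targets 19 were higher and 2 lower, and 5 of the 30 passed the filter through 1 group alone. Other genes of DNA damage changed in a minority. In DNA repair and checkpoint control 8 of 32 tested genes were higher and 2 lower. Ung, the uracil glycosylase, stood at 2.97, 5.24, 2.29, 3.65 and 3.37 FPKM in saline and 8.74, 10.6, 9.86, 8.63 and 8.71 FPKM after doxorubicin, without overlap (log2 change 1.22 ± 0.15 (SE), limma adjusted p = 1.3e-05). Fen1, a flap endonuclease, rose from 1.24 ± 0.325 to 2.43 ± 0.521 FPKM (mean ± SD, n = 5 each) (limma adjusted p = 0.00169). Of 13 tested topoisomerase and adduct repair genes 2 were higher and 1 lower, against 14.5% and 17.3% of all tested genes. Top1mt, the mitochondrial topoisomerase, stood at 19.5, 18.9, 19.9, 18 and 18.2 FPKM in saline and 52, 32, 39.5, 29.99 and 37.7 FPKM after doxorubicin and was again highest in doxorubicin 1 (log2 change 0.96 ± 0.13 (SE), limma adjusted p = 3.0e-05). Top2b, the topoisomerase II isoform of non-dividing cells that anthracyclines trap, was named after its values were seen. It ranged over 6.38 to 8.51 FPKM in saline and 5.89 to 6.35 FPKM after doxorubicin and missed the threshold (log2 change -0.23, limma adjusted p = 0.0545), which it passed after rescaling to TPM, under median-ratio scaling and under quantile normalization (limma adjusted p = 0.0388, 0.0468 and 0.0371), with the stricter filter (0.0478) and without saline 1 or saline 3 (0.0334 and 0.0327). In the BCL2 family, which decides mitochondrial cell death, 3 of 13 were higher and 2 lower, against the same 14.5% and 17.3%. Bax, an effector, stood at 12.9, 22.5, 13.8, 11.7 and 16.9 FPKM in saline and 44.5, 30.1, 44.9, 35.8 and 37.6 FPKM after doxorubicin (log2 change 1.28 ± 0.16 (SE), limma adjusted p = 2.3e-05). Bik, a BH3-only protein, ranged over 4.77 to 14.4 FPKM in saline and 1.999 to 4.88 FPKM after doxorubicin, with overlap (log2 change -1.29 ± 0.25 (SE), limma adjusted p = 8.3e-04).

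The cell cycle list was mostly below the filter, with 15 of 37 genes tested, 2 of these higher and 5 lower. The 2 members described here, Rrm2 and Ccnd1, are part of these counts and reached 1 FPKM in 1 group alone. Rrm2, the ribonucleotide reductase subunit made in S phase, stood at 1.54, 1.55, 2.41, 1.77 and 3.32 FPKM in saline and 0.253, 0.197, 0.236, 0.427 and 0.128 FPKM after doxorubicin, below 1 FPKM in every treated liver (log2 change -1.29). Ccnd1, cyclin D1, stood at 0.319, 0.509, 0.738, 0.751 and 0.58 FPKM in saline and 1.51, 2.67, 2.26, 3.34 and 1.91 FPKM after doxorubicin and went the opposite way (log2 change 1.06).

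Ribosomal and respiratory genes moved little, and their counts leaned on 1 library. Of 78 cytosolic ribosomal protein genes 21 were higher and 0 lower, with a median of 0.195 log2, and 13 were higher without the unnumbered library. Rpl3 rose by 0.80 and Rps19 by 0.69 log2 (limma adjusted p = 0.00144 and 0.00321). Rps19 stood at 112, 132, 107, 105 and 137 FPKM in saline and 187, 142, 184, 168 and 309 FPKM after doxorubicin, so that its highest value was that of the unnumbered library. Of 75 nuclear subunits of oxidative phosphorylation 12 were lower and 1 higher, and 26 were lower without the unnumbered library. With all libraries, the share of lower subunits was close to the 17.3% of all tested genes. Ndufb2, a complex I subunit, fell from 89.2 ± 14.9 to 44.3 ± 13.8 FPKM (mean ± SD, n = 5 each) (limma adjusted p = 2.7e-04). Of 77 mitochondrial ribosomal proteins 12 were higher and 1 lower, with 18 higher under median-ratio scaling. The share of higher members was close to the 14.5% of all tested genes. That scaling also raised the count of higher genes over all tested genes, to 1763. Of 36 tRNA synthetases 13 were higher and 3 lower, and 9 were higher after rescaling to TPM.

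Some genes of the growth hormone and glucocorticoid lists fell, and the action of these hormones was not tested. In the growth hormone and IGF list 8 of 23 genes were lower and 0 higher. Socs2, the feedback inhibitor of growth hormone signalling, stood at 7.49, 21.4, 3.05, 12.7 and 18.6 FPKM in saline and 1.84, 2.55, 5.83, 2.005 and 2.53 FPKM after doxorubicin. Saline 3 and doxorubicin 3 overlapped (log2 change -1.63 ± 0.38 (SE), limma adjusted p = 0.00359), and the call was lost when only replicates 1 to 4 of both groups were fitted. Igfbp2, an IGF carrier, ranged over 368 to 578 FPKM in saline and 207 to 296 FPKM after doxorubicin (log2 change -0.97, limma adjusted p = 2.5e-04). Ghr, the growth hormone receptor, was named after its values were seen and ranged over 125 to 146 FPKM in saline and 81.7 to 105 FPKM after doxorubicin (log2 change -0.55, limma adjusted p = 1.4e-04). Of 21 glucocorticoid-responsive genes 8 were lower and 1 higher. Tsc22d3, which encodes the glucocorticoid-induced protein GILZ, stood at 75.3, 118, 162, 83 and 92.7 FPKM in saline and 64.1, 30.6, 32.1, 51.6 and 33.2 FPKM after doxorubicin, without overlap (log2 change -1.31 ± 0.22 (SE), limma adjusted p = 2.7e-04). Among 26 hepatocyte transcription factors 6 were lower and 4 higher, against 17.3% and 14.5% of all tested genes, with 9 lower without the unnumbered library. Hnf4a, the nuclear receptor that maintains hepatocyte expression, stood at 154, 189, 172, 166 and 157 FPKM in saline and 139, 108, 114, 127 and 108 FPKM after doxorubicin, without overlap (log2 change -0.50 ± 0.09 (SE), limma adjusted p = 3.5e-04). Of 19 clock genes 5 were lower and 0 higher, and 3 were lower without saline 2. Hlf, a clock output factor, ranged over 9.5 to 13.4 FPKM in saline and 6.67 to 8.72 FPKM after doxorubicin (log2 change -0.52, limma adjusted p = 0.00112). Per1 ranged over 6.45 to 18.2 FPKM in saline and 3.3 to 10.4 FPKM after doxorubicin, with overlap (log2 change -0.82, limma adjusted p = 0.0279), and its call was lost in 4 of the 10 fits that left out 1 library (limma adjusted p up to 0.0819).

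Genes that no list covered held some of the largest changes. Among 8847 such genes 110 were higher and 115 lower by at least 2-fold. Over all 10369 tested genes the counts were 233 (2.25%) and 173 (1.67%), both larger shares than among the genes in no list. Dnajc12 (chr10:63382443-63408840), a cochaperone of aromatic amino acid hydroxylases, stood at 9.92, 6.36, 9.57, 10.3 and 8.87 FPKM in saline and 86.5, 93, 105, 93.3 and 77.3 FPKM after doxorubicin. It was about 10.1 times higher in mean, with a narrow range within each group (log2 change 3.21 ± 0.12 (SE), limma adjusted p = 5.7e-11). Isyna1, inositol-3-phosphate synthase, stood at 7.16, 8.78, 6.55, 4.8 and 6.14 FPKM in saline and 38, 90.2, 59.1, 33.9 and 47.7 FPKM after doxorubicin, with doxorubicin 2 the highest (log2 change 2.77 ± 0.21 (SE), limma adjusted p = 2.3e-07). Slc41a2, a magnesium transporter, rose from 2.61 ± 1.27 to 21.8 ± 2.31 FPKM (mean ± SD, n = 5 each) (limma adjusted p = 1.7e-06). Gria3, an AMPA glutamate receptor subunit better known from neurons, stood at 0.0309, 0.54, 0.16, 0.248 and 0.271 FPKM in saline and 10.8, 5.51, 7.25, 4.6 and 9.07 FPKM after doxorubicin. No control reached 1 FPKM and every treated liver exceeded 4 FPKM (log2 change 2.71). Fabp5, a fatty acid binding protein, stood at 4.5, 8.93, 4.18, 4.19 and 5.91 FPKM in saline and 21.8, 46.3, 64.7, 32.1 and 22.5 FPKM after doxorubicin (log2 change 2.48 ± 0.30 (SE), limma adjusted p = 1.2e-05). Gas6, the ligand of the TAM receptors that clear dying cells, stood at 12.2, 16.9, 13.9, 16.2 and 10.5 FPKM in saline and 58.1, 61.5, 75.5, 61 and 56.2 FPKM after doxorubicin (log2 change 2.1 ± 0.13 (SE), limma adjusted p = 1.4e-08). Ces2e, a carboxylesterase with close relatives, rose from 35.8 ± 11.3 to 158 ± 26.6 FPKM (mean ± SD, n = 5 each) (limma adjusted p = 1.3e-06).

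Several genes outside the lists were nearly silent in saline. Atp8b5, Slfn4, Scara5 and Gria3 reached 1 FPKM in the doxorubicin group alone. Atp8b5, a phospholipid flippase, stood at 0.131, 0.124, 0.11, 0.309 and 0.132 FPKM in saline and 4.47, 3.61, 5.12, 3.38 and 3.998 FPKM after doxorubicin (log2 change 2.13). Slfn4, a Schlafen gene known from myeloid cells, stood at 0.213, 0.282, 0.0673, 0.26 and 0.467 FPKM in saline and 5.69, 5.41, 8.7, 6.34 and 3.79 FPKM after doxorubicin (log2 change 2.44). Scara5, a ferritin receptor, ranged over 0.24 to 0.931 FPKM in saline and 3.08 to 11.5 FPKM after doxorubicin, and Cox6b2, a respiratory subunit known from testis, over 0.127 to 1.32 FPKM in saline and 2.95 to 9.53 FPKM after doxorubicin (log2 changes 2.21 and 2.05). Among controls Cox6b2 reached 1 FPKM in saline 2 and saline 4 alone. It passed the filter mainly through the doxorubicin group, so it is given without a p-value. Prtn3 (chr10:79879667-79883174), proteinase 3 of neutrophil granules, stood at 0.504, 0.219, 1.19, 0.267 and 0.137 FPKM in saline and 8.74, 15.1, 22.7, 27.6 and 16.1 FPKM after doxorubicin (log2 change 3.65). Among controls it reached 1 FPKM in saline 3 alone, so it too is given without a p-value. Other granule genes of early neutrophils were near 0: Mpo was at most 0.0453 FPKM in saline and 0.0209 FPKM after doxorubicin, and Elane at most 0.694 and 0.388 FPKM. Hist1h4h, a histone H4 gene, stood at 4.42, 7.58, 6.34, 3.64 and 3.13 FPKM in saline and 29.3, 16, 15.1, 12 and 81.4 FPKM after doxorubicin, and the unnumbered library had more than double any other value (log2 change 2.08 ± 0.39 (SE), limma adjusted p = 8.0e-04). Histone H4 genes encode the same protein, and reads may be shared.

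Among the falls of genes with a name outside the lists, Rgs16 (chr1:153740353-153745468), which shortens G protein signalling and is known to follow feeding and the clock in liver, changed most. It stood at 14.5, 32.9, 52, 31.9 and 43.4 FPKM in saline and 5.56, 1.75, 1.59, 1.55 and 1.35 FPKM after doxorubicin, without overlap (log2 change -3.43 ± 0.34 (SE), limma adjusted p = 1.8e-06). Hdc, histidine decarboxylase, stood at 31.4, 74.7, 21.9, 19.4 and 26.1 FPKM in saline and 7.09, 5.62, 5.79, 4.34 and 3.32 FPKM after doxorubicin, where saline 2 was the highest (log2 change -2.37 ± 0.29 (SE), limma adjusted p = 1.6e-05). Etnppl, which degrades phosphoethanolamine, fell from 70.4 ± 21.2 to 14 ± 2.94 FPKM (mean ± SD, n = 5 each) (limma adjusted p = 2.4e-06). Inmt, a methyltransferase of indoleamines, stood at 569.9, 566, 595, 678 and 616 FPKM in saline and 81.2, 78.6, 218, 398 and 167 FPKM after doxorubicin: controls were within a narrow range and treated livers varied widely (log2 change -1.94 ± 0.33 (SE), limma adjusted p = 2.9e-04). Car3, carbonic anhydrase 3, stood at 923, 1081, 882, 1423 and 1323 FPKM in saline and 175, 345, 344, 284 and 416 FPKM after doxorubicin (log2 change -1.88 ± 0.20 (SE), limma adjusted p = 4.0e-06), and its relative Car1 ranged over 6.55 to 9.31 FPKM in saline and 1.22 to 2.3 FPKM after doxorubicin (limma adjusted p = 2.4e-06). Dio1, which activates thyroid hormone, stood at 76.4, 76.5, 62.1, 111 and 60.3 FPKM in saline and 24.9, 22.9, 17.7, 21.6 and 25.2 FPKM after doxorubicin (log2 change -1.71 ± 0.16 (SE), limma adjusted p = 9.1e-07). Cyp17a1, a steroid hydroxylase and lyase, and Aqp8, a water channel, ranged over 15.5 to 34 FPKM in saline and 3.58 to 11.3 FPKM after doxorubicin and over 33.5 to 77.2 FPKM in saline and 13.3 to 28 FPKM after doxorubicin respectively (log2 changes -1.87 and -1.68, limma adjusted p = 8.0e-05 and 3.9e-05). Hectd2, Defb1, Tmie, Slc17a4 and Arrdc3 fell as well, with log2 changes from -1.97 (Hectd2) to -1.66 (Arrdc3) and groups that did not overlap.

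**Figure D4:**
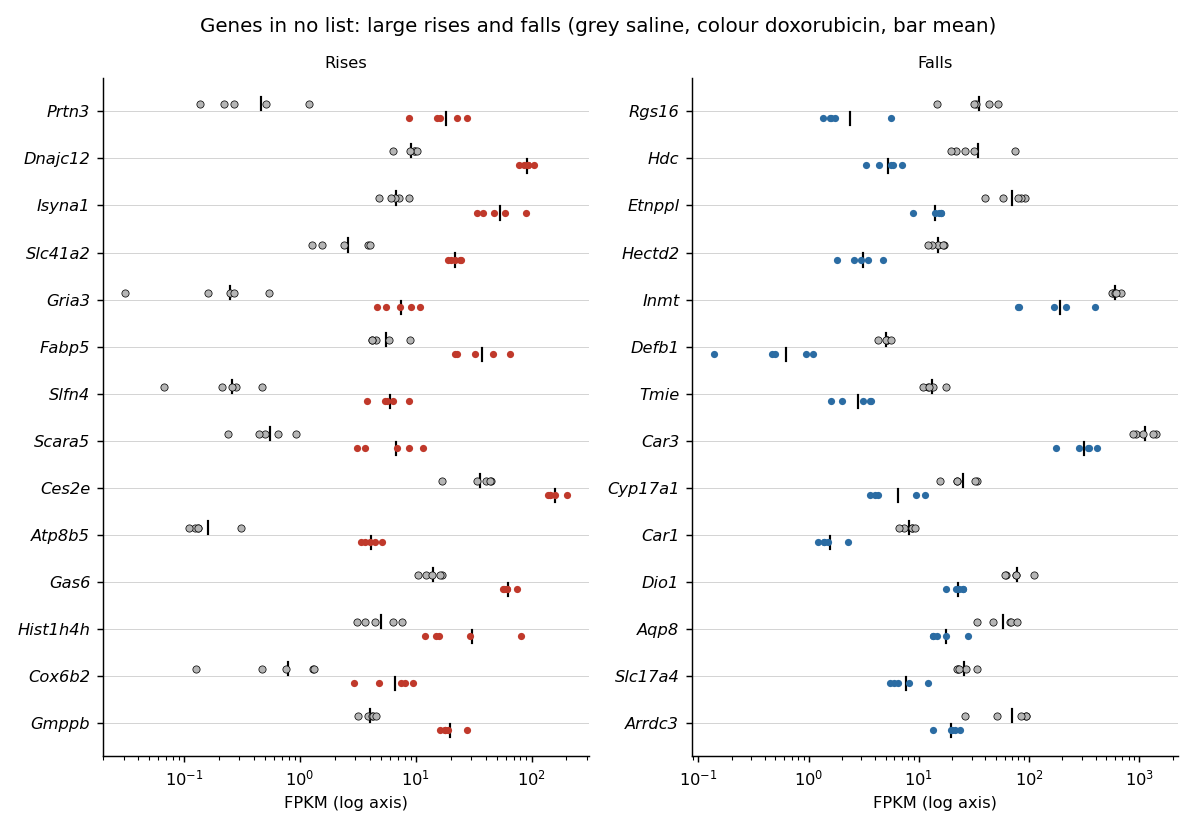
FPKM in each library, on log axes, of 14 of the 15 largest rises (left) and 14 of the 15 largest falls (right) among genes with a name, in none of the lists, whose groups do not overlap. Gene models without a name were left out. Grey points are saline, red and blue points doxorubicin and bars the group means. In each row the groups do not overlap, from Prtn3 at a log2 change of 3.65 to Rgs16 at -3.43.

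Markers of other cell types also moved. In whole liver, fewer cells of a type and less RNA per cell cannot be told apart. Of 11 erythroid markers 5 were tested and 4 were lower, all of them globins. Hba-a1 stood at 201, 245, 146, 152 and 260.3 FPKM in saline and 30.3, 102, 26, 13 and 39.4 FPKM after doxorubicin and Hbb-bt at 33.7, 35.5, 19.4, 31.6 and 29.5 FPKM in saline and 3.13, 14.7, 2.74, 1.73 and 1.21 FPKM after doxorubicin, with doxorubicin 2 the highest treated liver for both (log2 changes -2.51 ± 0.40, limma adjusted p = 2.0e-04 and -2.82 ± 0.39, limma adjusted p = 4.9e-05). The summed level of the erythroid markers was 312 to 514 FPKM in saline and 44.6 to 276 FPKM after doxorubicin. Alas2, the haem synthesis enzyme of erythroid cells, passed no test, at 20.1 to 26.6 FPKM in saline and 15.5 to 34.5 FPKM after doxorubicin (log2 change -0.07, limma adjusted p = 0.813). Of 18 tested sinusoidal endothelial markers 6 were lower and 1 higher. Stab2, a scavenger receptor of these cells, ranged over 6.31 to 10.2 FPKM in saline and 2.96 to 4.39 FPKM after doxorubicin and Clec4g over 21.2 to 29.1 FPKM in saline and 9.64 to 18.4 FPKM after doxorubicin (log2 changes -0.77 and -0.85, limma adjusted p = 6.6e-04 and 0.00791). The summed endothelial level was 114 to 168 FPKM and 79.5 to 121 FPKM. Lyve1 was the higher one, at 0.926, 0.953, 1.42, 1.96 and 1.16 FPKM in saline and 2.14, 2.45, 1.7, 3.94 and 6.86 FPKM after doxorubicin, where the unnumbered library was highest (log2 change 0.86, limma adjusted p = 0.0106). Its call was lost when only replicates 1 to 4 were fitted.

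Most tested myeloid markers were higher, beside the inflammatory genes above, and their part in those changes was not tested. Of 19 neutrophil markers 5 were tested and 4 were higher, with a summed level of 23.4 to 94.8 FPKM in saline and 324 to 551 FPKM after doxorubicin, most of it from Lcn2, which hepatocytes also make. With no filter 11 of the 19 were higher and 0 lower, while the count over all genes rose from 1508 to 1765. Most of the markers added that way were below 1 FPKM. The medians of Elane, Ngp and Ltf were 0.313, 0.181 and 0.0766 FPKM in saline and 0.107, 0.0458 and 0.0578 FPKM after doxorubicin. Of 16 monocyte markers 6 were tested and 5 were higher. Their summed level, which includes Fn1 from hepatocytes, was 111 to 201 and 240 to 355 FPKM. With no filter 12 of the 16 were higher. Of 15 tested Kupffer cell markers 10 were higher, 1 lower and 4 not called, with a summed level of 137 to 214 and 304 to 381 FPKM. Much of that rise came from Id3, whose median went from 23.5 to 108.7 FPKM. The medians of Clec4f, Csf1r and Cd163 were 23.25, 5.57 and 1.28 FPKM in saline and 18.06, 5.44 and 1.29 FPKM after doxorubicin. Marco, a scavenger receptor of Kupffer cells, stood at 2.94, 0.84, 1.96, 3.92 and 2.08 FPKM in saline and 21.7, 27.7, 17.9, 24.2 and 16 FPKM after doxorubicin (log2 change 2.8 ± 0.22 (SE), limma adjusted p = 2.6e-07). Of 7 tested cholangiocyte markers 3 were higher and 1 lower. The higher ones included the keratins Krt18 and Krt8, which hepatocytes also express, and Krt18 stood at 121, 159, 122, 107 and 126 FPKM in saline and 238, 281, 266, 249.9 and 400.4 FPKM after doxorubicin (log2 change 1.16 ± 0.13 (SE), limma adjusted p = 8.1e-06). Krt23 was the lower one, at 1.2 to 2.1 FPKM in saline and 0.324 to 0.502 FPKM after doxorubicin (log2 change -0.86), and reached 1 FPKM in the saline group alone.

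The treated livers differed among themselves by gene group. Over all tested genes the number in which a given treated library was the highest of its group ran from 964 genes in doxorubicin 2 to 3138 genes in the unnumbered library. Doxorubicin 2 was nonetheless the highest in 11 of 23 ER chaperones, 26 of 56 translocon, glycosylation and traffic genes, 21 of 47 complement and coagulation genes and 12 of 15 Kupffer cell markers. Doxorubicin 1 was the highest in 33 of 43 fatty acid oxidation genes, 18 of 30 p53 targets and 22 of 42 conjugation enzymes, against 2276 of 10369 genes overall. The unnumbered library was the highest in 35 of 53 interferon-stimulated genes, 58 of 78 cytosolic ribosomal proteins and 57 of 75 oxidative phosphorylation subunits. These counts describe 5 livers, and nothing in the labels sets the 5 apart.

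**Figure D5:**
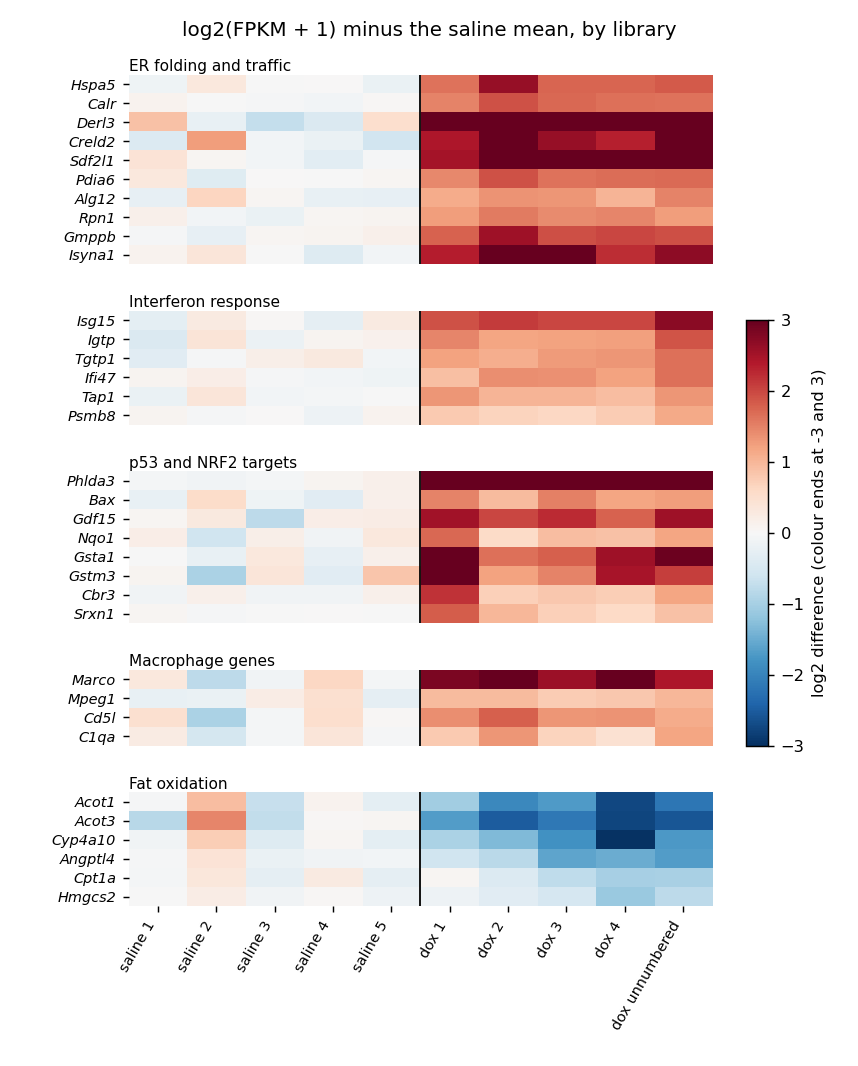
Heat map of named genes (rows) in the 10 libraries (columns), coloured by log2(FPKM + 1) minus the saline mean of the gene, red above and blue below. Colours end at a difference of 3. Hspa5, Calr and Gmppb are highest in doxorubicin 2, Isg15 and Igtp in the unnumbered library and Cbr3 and Srxn1 in doxorubicin 1, and Creld2 is higher in saline 2 than in the other controls.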

How the data were processed

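Bulk RNA sequencing of liver was measured in 15 mice, of which the 5 saline and 5 doxorubicin libraries are reported. Per the submitters' processing notes, the tools the authors used were Trim Galore 0.4.1 for trimming, HISAT2 2.0.1 as aligner, featureCounts 1.4.6 as counter and edgeR of unstated version, and the builds named are GRCm38 and mm10. The deposited values are FPKM, scaled by the authors to gene length and library size, in 15 columns of which 0 were left unused. Annotation release and strand setting are not given in the sources used here, so overlapping and antisense genes cannot be told apart. One read in a gene of 1 kb was worth 0.0197 to 0.0363 FPKM in the 10 libraries, which is the step that limits low values.

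The 10369 genes at or above 1 FPKM in 5 or more libraries were fitted with limma 3.58.1 (R 4.3.3) on log2(FPKM + 1), with trend and robust variance, over all 3 groups of 15 libraries, because they share 1 estimate of the spread. The two-sided contrast was doxorubicin minus saline, with Benjamini-Hochberg adjustment over 10369 genes at 0.05. The fit was tested on simulated data. Whether the mice shared cages or days is not in the labels. Tables and plots were made with pandas 2.3.3, matplotlib 3.10.9 and numpy 2.4.6 under Python 3.11.15. Gene positions came from RefSeq (GRCm38.p6) for 21340 of 21878 symbols.

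The comparison, the 61 gene lists and the promoter motifs were chosen with earlier results of these data known. Named genes were the 15 largest rises and falls among genes whose groups do not overlap, the same among genes in no list, up to 4 called members per list and direction, every tested member of lists of up to 8, and Gdf15, Ern1 and Xbp1; others are said to lie outside this rule where they are named, and some genes that meet it are not reported here. Gene models without a name, such as those with Gm or Rik symbols, were counted but left out of the rankings for named genes. Genes whose promoter holds the ER stress element are named for it. Alternatives were pseudocounts of 0.1 and 0.5, no filter, a mean of at least 5 FPKM, TPM, median-ratio and quantile scaling, variance without trend, 2 groups alone, a replicate block, and leaving out each library. Leaving out saline 2 with the unnumbered library, and fitting replicates 1 to 4 unpaired, were added after seeing the data.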

Additional observations from a re-analysis of the deposited data

Results flagged for a closer look

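Among the 175 genes checked, 42 of 350 groups of 5 libraries (12%) held 1 library far from the other 4. About 1 in 20 holds for normally distributed values, but these were untransformed FPKM. Some of the genes were also chosen after their values were seen. No excess over chance can therefore be read from this share. Saline 2 accounted for 12 of these and the unnumbered doxorubicin library for 10. No cause was tested for any of them. Each value is given with the range of the other 4 libraries of its group in parentheses, in FPKM.

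Saline 2 was high for Acot3 at 36.5 (6.62 to 13.1), Angptl4 at 223 (146 to 164), Hdc at 74.7 (19.4 to 31.4), Pan2 at 35.9 (15.8 to 19.8) and Socs3 at 15.6 (4.61 to 6.90). It was also high for ER genes: Alg12 at 11.03 (5.39 to 6.99), Atf6b at 8.45 (6.45 to 6.98), Creld2 at 47.9 (12.8 to 18.4), Hsp90b1 at 247 (181 to 197) and Syvn1 at 102 (31.5 to 43.6). It was low for Cyp3a11 at 1689 (2641 to 2909) and Rnf139 at 5.58 (6.34 to 6.63). In saline 3, Bhmt was high at 3168 (2241 to 2450) and Gdf15 low at 4.92 (9.62 to 11.5). Saline 4 was high for Atp8b5 at 0.309 (0.110 to 0.132), and saline 5 for Gstm1 at 1886 (1061 to 1282) and Junb at 29.4 (15.8 to 19.8).

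Doxorubicin 1 was high for Cbr3 at 4.75 (1.10 to 1.92), Srxn1 at 50.9 (21.2 to 28.4), Lpin1 at 27.7 (5.58 to 8.84) and Rgs16 at 5.56 (1.35 to 1.75), and low for Etnppl at 8.92 (14.0 to 15.9). Doxorubicin 2 was high for Hspa5 at 971 (489.6 to 564), Eif2ak3 at 7.78 (5.17 to 5.82), Gmppb at 27.9 (16.1 to 19.0) and Hbb-bt at 14.7 (1.21 to 3.13). Doxorubicin 3 was high for Gas6 at 75.5 (56.2 to 61.5) and Socs2 at 5.83 (1.84 to 2.55). In doxorubicin 4, 4 metabolic genes were high: Got1 at 49.5 (27.5 to 33.4), Ass1 at 1152 (767 to 822), Cth at 149.9 (119.7 to 127) and Acacb at 4.29 (2.25 to 2.66).

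The unnumbered doxorubicin library was high for Lars2 at 286 (21.1 to 26.3), Cebpb at 89.0 (9.36 to 20.8), Hist1h4h at 81.4 (11.98 to 29.3), Top1 at 36.8 (9.86 to 11.2) and Sec61g at 62.2 (19.5 to 27.6). It was also high for Rps19 at 309 (142 to 187), Krt18 at 400.4 (238 to 281), Isg15 at 89.4 (51.2 to 58.4), Psmb8 at 46.4 (32.0 to 35.7) and Car1 at 2.30 (1.22 to 1.5).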

How the results depend on the processing

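The count of higher genes stayed within 1.5 times of 1508 under every alternative but the replicate block. No gene named by the rule changed sign where it was called in the main fit or in the alternative. Sign changes of genes called in neither were not counted. Leaving out 1 library gave 1328 to 1715 higher genes, 1404 to 1768 lower genes and 2417 to 3012 genes without overlap. Rescaling to TPM gave 1372 higher and 1981 lower, and median-ratio scaling 1763 and 1659. Replicate numbers 1 to 4 occur in both groups, but same-numbered libraries did not deviate together (correlations of -0.124, -0.224, -0.263 and 0.0142). These correlations cannot exclude a shared cage or day, which the labels do not give. With the replicate block 650 genes were higher and 551 lower. The same 8 libraries fitted unpaired gave 1029 higher and 1063 lower, so fewer libraries account for a part of that drop. In that unpaired fit 12 fatty acid oxidation genes and 5 genes each of bile acid synthesis and of bile acid transport were lower. Of 344 called genes among 370 named or listed by the rule, 220 kept their call in every alternative in which they were fitted. The filter at a mean of 5 FPKM fitted only 295 of the 370. List counts of 4 or fewer often moved by more than 1.5 times. The step of 1 read limits genes below about 1 FPKM, and the deeper doxorubicin libraries resolve such genes better than the saline ones.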

Other observations

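Replication-dependent histone genes, which stood in no list, rose as a group that was noticed after the values were seen. Of 66 such genes in the table (symbols beginning Hist1h, Hist2h or Hist3h) 17 were tested, of which 14 were higher and 0 lower, with a median change of 0.80 log2, against 14.5% of all tested genes higher. In 10 of the 17 all doxorubicin values lay above all saline values, against 10.5% of all tested genes. Of the 17, 2 passed the filter through the doxorubicin group alone, and 13 were higher without the unnumbered library. Their mRNAs are known to lack a poly(A) tail for the most part, and these libraries were selected for poly(A). Their copies are close in sequence, and reads may be shared. Rrm2, which like histone genes is known to be transcribed in S phase, went from 2.12 ± 0.761 to 0.248 ± 0.111 FPKM (mean ± SD, n = 5 each) in the same livers (log2 change -1.29), and reached 1 FPKM in the saline group alone.

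Cebpb, a transcription factor of the acute phase, ranged from 19.5 to 62.8 FPKM in saline and stood at 20.8, 9.36, 12, 11.2 and 89 FPKM in the 5 doxorubicin libraries. With all libraries the difference passed no test (log2 change -0.93, limma adjusted p = 0.158), and without the unnumbered library it did (log2 change -1.47, limma adjusted p = 0.0014). Lars2, a mitochondrial tRNA synthetase, stood at 21.9, 21.1, 25.1, 26.3 and 286 FPKM after doxorubicin and at 19.3 to 32.7 FPKM in saline, and Top1, a type I topoisomerase, at 11.2, 11.1, 10.3, 9.86 and 36.8 and at 8.34 to 12.1 FPKM. All 3 genes were chosen after their values were seen.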
